A study of Canis lupus familiaris with 26 samples.

Results

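NODAL, TGFBR1 and THBS1 belong to the transforming growth factor beta (TGF-beta) axis. Their 3 transcripts were followed, out of 19856 Ensembl genes, through RNA-Seq read counts of the canine corpus luteum (CL). They were taken by name, through the identifiers ENSCAFG00000014052 (NODAL), ENSCAFG00000002528 (TGFBR1) and ENSCAFG00000008704 (THBS1), which the study's supplementary lists pair with the symbols. Those lists hold the study's own DEGs (differentially expressed genes) of these samples, so being a DEG here is not independent evidence. The 26 samples were CL of single bitches of various breeds and ages with spontaneous estrus, collected surgically on day 5, 10, 20 or 30 after ovulation. On each of these days, 1 group had been dosed orally every day from ovulation on with 10 mg/kg of firocoxib (Previcox), an inhibitor of cyclooxygenase 2 (COX2), the enzyme that starts prostaglandin synthesis, and 1 group was the control. The label on treatment names a placebo for the controls, whereas the series' design text leaves them without any treatment. Day 5 had 4 control and 4 treated samples, and each later day had 3 and 3.

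TGF-beta ligands are secreted in latent form and act once freed, by binding a type II receptor that recruits and phosphorylates a type I receptor. TGFBR1, also known as ALK5, is the type I receptor of the TGF-beta ligands and passes the signal on to SMAD2 and SMAD3. THBS1 encodes thrombospondin 1, a matricellular protein that can free TGF-beta from its latent complex and that restrains the growth of blood vessels through CD36 and CD47. NODAL is a ligand of the same superfamily, best known from the embryo, which signals through activin receptors such as ACVR1B with the help of a co-receptor. In the ovary, these factors have been studied in follicles and in the regression of the CL.

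Counts were scaled to library size (CPM, the reads of a gene relative to all reads counted in its library, with edgeR's TMM factors), and totals ranged from 12831896 to 22658950 reads per sample. Because genes differ in length and lengths were not used, levels are compared between samples and not between genes. The luteal markers with an identifier, LHCGR and PRLR, were detected in every sample and summed to between 102 and 508 CPM. Samples of a group were less alike among treated than among control dogs on days 5, 10 and 20. The mean correlation of a sample with the others of its group was 0.931 to 0.966 in all controls. The lowest within each treated group of these days was 0.851 on day 5 (replicate 1), 0.862 on day 10 (replicate 1) and 0.7998 on day 20 (replicate 2). Fits without these 3 set-aside libraries are given for some of the results that rest on them. Treated replicate 3 of day 20 (0.835) was below those of days 5 and 10 but was not set aside. In bulk tissue, fewer cells of a type and less RNA per cell cannot be told apart.

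NODAL transcripts were sparse in most CL and plentiful only in some. In day 5 controls the level was 6.28, 0.278, 5.98 and 1.40 CPM in replicates 1, 3, 4 and 5, and in day 10 controls it was 12.7, 3.28 and 0.589 CPM in replicates 2, 3 and 4. Day 20 controls had 0, 0.365 and 0.632 CPM in replicates 1, 2 and 3, and day 30 controls had 0.643, 0.313 and 1.80 CPM in replicates 2, 3 and 4. Thus 4 of the 7 early controls (days 5 and 10) lay above every mature control (days 20 and 30), and the other 3 early controls fell within the mature range. Treated dogs on day 5 had 18.0, 3.90, 0.0855 and 0.456 CPM in replicates 1, 2, 4 and 5. Treated dogs on day 10 had 0.489, 3.78 and 1.63 CPM in replicates 1, 4 and 5. On day 20, treated replicates 2, 3 and 4 reached 9.09, 15.7 and 16.3 CPM, and on day 30, treated replicates 2, 4 and 5 were back at 1.05, 0.141 and 0.985 CPM. All treated samples of day 20 were therefore above all controls of that day, and only 2 other samples of the series, treated replicate 1 of day 5 and control replicate 2 of day 10, exceeded the lowest of these 3.

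TGFBR1 varied less between control groups. Its level was 239, 617, 359 and 372 CPM in day 5 controls (replicates 1, 3, 4 and 5), 360, 173 and 452 CPM in day 10 controls (replicates 2, 3 and 4), 227, 627 and 346 CPM in day 20 controls (replicates 1, 2 and 3), and 119, 278 and 320 CPM in day 30 controls (replicates 2, 3 and 4). These 4 groups overlapped. Treated samples of days 5 and 10 were more scattered than their controls, with 33.7, 384, 128 and 1371 CPM on day 5 (replicates 1, 2, 4 and 5) and 63.2, 505 and 336 CPM on day 10 (replicates 1, 4 and 5). On day 20, treated replicates 2, 3 and 4 had 26.03, 164 and 192 CPM, all below the lowest control of that day. On day 30, treated replicates 2, 4 and 5 had 132, 184 and 176 CPM, within the range of the controls and less scattered (SD 27.8 against 106 CPM).

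THBS1 was tightly grouped in day 5 controls, with 373, 345, 312 and 318 CPM in replicates 1, 3, 4 and 5. It had 122, 380 and 189 CPM in day 10 controls (replicates 2, 3 and 4), 44.2, 143 and 92.1 CPM in day 20 controls (replicates 1, 2 and 3) and 130, 114 and 87.7 CPM in day 30 controls (replicates 2, 3 and 4). Of the 7 early controls, 6 were above every mature control. Treated dogs had 236, 1108, 584 and 397 CPM on day 5 (replicates 1, 2, 4 and 5) and 32.9, 258 and 321 CPM on day 10 (replicates 1, 4 and 5). On day 20, treated replicates 2, 3 and 4 had 200, 1110 and 645 CPM, and on day 30, treated replicates 2, 4 and 5 had 188, 208 and 57.7 CPM. As for NODAL, the treated and control samples of day 20 did not overlap, whereas those of the other days did.

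**Figure D1:**
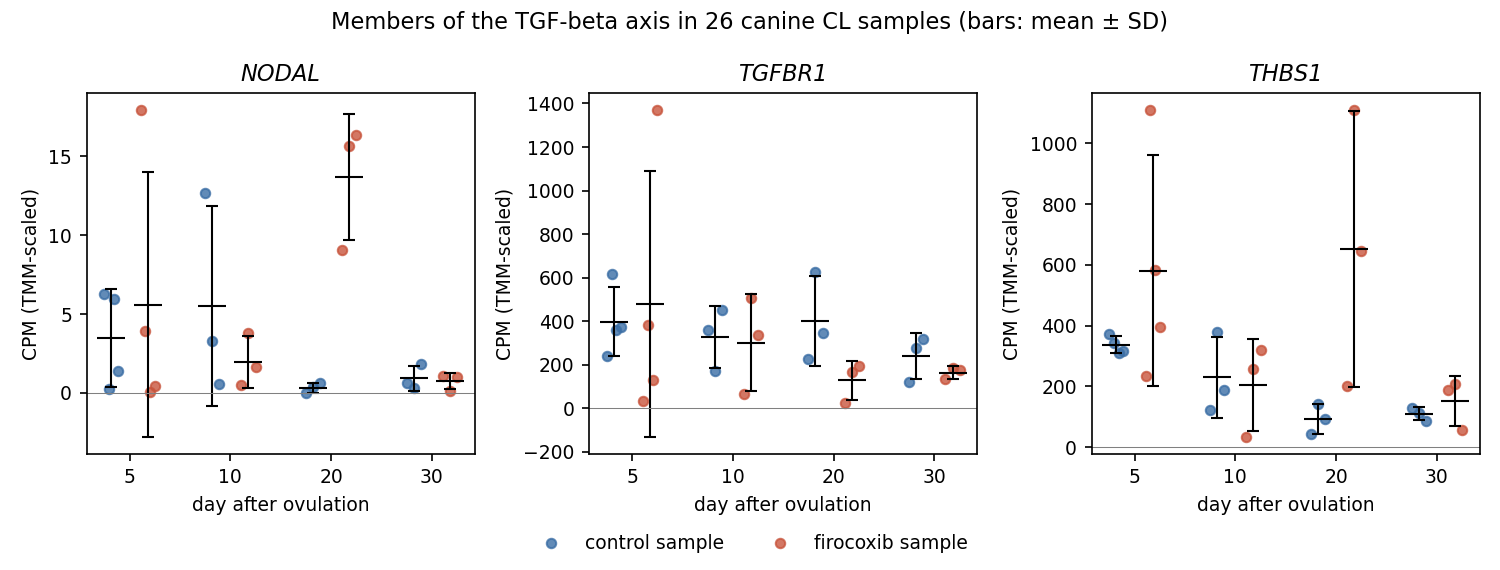
Level of NODAL, TGFBR1 and THBS1 (vertical axes, TMM-scaled CPM, a separate scale for each gene) on each day after ovulation (horizontal axes) in control (blue) and firocoxib-treated (red) CL. Each point is 1 dog and the bars are the mean ± SD of the 3 or 4 dogs of a group; the 3 treated samples of day 20 lie above the controls for NODAL and THBS1 and below them for TGFBR1.

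Ordered by mean level, day 20 treated CL came first for NODAL (13.7 ± 4.01 CPM, SD, n = 3) and for THBS1 (652 ± 455 CPM, SD, n = 3), and last for TGFBR1 (128 ± 89.1 CPM, SD, n = 3). Day 20 controls came last for NODAL (0.332 ± 0.317 CPM, SD, n = 3) and THBS1 (92.9 ± 49.2 CPM, SD, n = 3), and were second for TGFBR1 (400 ± 206 CPM, SD, n = 3). For NODAL, the groups between were day 5 treated (5.60 ± 8.42 CPM, SD, n = 4, median 2.18), day 10 control (5.53), day 5 control (3.49), day 10 treated (1.97), day 30 control (0.920) and day 30 treated (0.725 CPM). For TGFBR1, day 5 treated was first (479 ± 612 CPM, SD, n = 4), with a median of 256 CPM and its highest dog at 1371 CPM. Day 20 control was followed by day 5 control (397), day 10 control (328), day 10 treated (301), day 30 control (239) and day 30 treated (164 CPM). In mean log2 CPM, day 5 treated was below day 20 control for TGFBR1 (7.77 and 8.52) and below day 10 control for NODAL (0.75 and 1.64). For THBS1, the groups between were day 5 treated (581), day 5 control (337), day 10 control (230), day 10 treated (204), day 30 treated (151) and day 30 control (110 CPM). Neighbours in these orders overlapped in all 7 pairs of each gene. A two-sided exact permutation test of log2 CPM gave a smallest p of 0.229 for NODAL, 0.4 for TGFBR1 and 0.286 for THBS1. Such a test cannot go below 0.1 with 3 samples against 3, or below 0.0571 with 4 against 3. Only THBS1 in day 5 treated and day 5 control, 4 against 4, could reach 0.0286. The pairs were also taken as nearest in mean, so no conclusion is drawn from these tests.

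The first comparison asked what changed as the control CL matured from days 5 and 10 to days 20 and 30. NODAL averaged 4.36 ± 4.41 CPM in the 7 early samples and fell to 0.626 ± 0.624 CPM in the 6 mature ones (means ± SD), and THBS1 fell from 291 ± 97.7 to 102 ± 35.2 CPM. TGFBR1 had 367 ± 143 CPM early and 320 ± 171 CPM later. The log2 fold change was -2.78 (standard error 0.86) for NODAL and -1.53 (standard error 0.30) for THBS1, and the quasi-likelihood test of edgeR gave Benjamini-Hochberg FDRs of 0.034 and 0.00355, which made both of them DEGs (P under 0.01 and FDR under 0.1). For TGFBR1 it was -0.21 (standard error 0.34, edgeR FDR = 0.671). DEGs made up 20.5% of the 13503 genes tested, and lower ones 10.4%, and higher ones 10.1%, and the 2 of 3 members among the lower ones are read against that share. The call of THBS1 held without any 1 of the 13 samples, with log2 fold changes between -1.67 and -1.37. That of NODAL was lost on its P-value, at 0.0104 to 0.0164 against the threshold of 0.01, without replicate 1 (-2.68) or 4 (-2.70) of day 5, replicate 2 of day 10 (-2.25), replicate 2 (-2.67) or 3 (-2.79) of day 20, or replicate 3 of day 30 (-2.65), and it was also lost in limma voom (-2.64, FDR = 0.101).

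The same contrast in firocoxib-treated CL made none of the 3 a DEG, beside 4.65% of the 13747 genes tested (3.11% lower and 1.54% higher). NODAL had 4.04 ± 6.33 CPM on days 5 and 10 (SD, n = 7) and 7.21 ± 7.55 CPM on days 20 and 30 (SD, n = 6). The log2 fold change was 0.85 (standard error 1.05) for NODAL, -1.44 (standard error 0.71) for TGFBR1 and -0.04 (standard error 0.68) for THBS1, with edgeR FDRs of 0.654, 0.270 and 0.975. Without the 3 set-aside libraries, an alternative chosen after the data were examined, TGFBR1 was a DEG (-1.66, edgeR FDR = 0.0709) beside 11.5% of genes. NODAL (1.80) and THBS1 (-0.26) were not DEGs in that fit. Whether the 2 contrasts of maturation differ from each other was not tested as such; the interactions given further on compare the treatment difference between days.

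Each treated group was then compared with the control of its day, the comparison that addresses the withdrawal of prostaglandins. On day 20, the log2 fold change of treated over control was 5.35 (standard error 0.94) for NODAL, 2.86 (standard error 0.74) for THBS1 and -1.59 (standard error 0.75) for TGFBR1. The quasi-likelihood test of edgeR gave Benjamini-Hochberg FDRs of 0.102, 0.159 and 0.322, and unadjusted P-values of 0.000439, 0.00456 and 0.0662. NODAL and THBS1 thus passed the P-value threshold and not the FDR threshold, and TGFBR1 passed neither. Of the 13726 genes tested on this day, 0.102% were DEGs and 5.18% had a P under 0.01, and in 29.8% of 14171 genes treated and control samples did not overlap, with the treated samples higher in 15.8%. All 3 members were among the genes without overlap on day 20 and none on days 5, 10 and 30, when 8.43%, 4.88% and 14.4% of genes were. NODAL was counted in 0, 6 and 12 reads in the controls and 169, 325 and 323 reads in treated replicates 2, 3 and 4, so it passed the filter on low counts only through the treated group.

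The calls of day 20 changed when treated replicate 2 was left out. It had the lowest TGFBR1 of the series, 26.03 CPM, and also the lowest THBS1 and NODAL of its group. Without it, NODAL (5.57, edgeR FDR = 0.0104) and THBS1 (3.28, edgeR FDR = 0.0170) were DEGs and TGFBR1 was at -1.14 (edgeR FDR = 0.212), and DEGs over all genes numbered 1016 (7.4%) in place of 14. With DESeq2, the test named in the study's methods, NODAL (5.34, FDR = 5.53e-09) and THBS1 (2.80, FDR = 0.00319) were DEGs with all 6 samples, as were 1479 genes (10.8%) in total.

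On the other days no member passed a threshold, and edgeR's test called no DEG among all genes, with 11.8%, 0.902% and 8.14% of them at an unadjusted P under 0.05 on days 5, 10 and 30. DESeq2 called 100 DEGs on day 5 and 116 on day 30 over all genes, without any of the 3. On day 5 the log2 fold change was 0.70 (standard error 1.26) for NODAL, 0.21 (standard error 0.84) for TGFBR1 and 0.76 (standard error 0.42) for THBS1, with edgeR FDRs of 0.745, 0.886 and 0.421. THBS1 was above every control in 3 of the 4 treated dogs and below every control in the other, the set-aside replicate 1. Without 1 sample at a time, THBS1 ran from 0.24 to 1.03, with no edgeR FDR below 0.288. On day 5 the sign was decided by single dogs for the other two, with NODAL at -1.24 without treated replicate 1 and TGFBR1 at -1.16 without treated replicate 5. On day 10 the log2 fold changes were -1.47 (standard error 1.03) for NODAL, -0.11 (standard error 0.66) for TGFBR1 and -0.17 (standard error 0.72) for THBS1, each with an edgeR FDR of 0.99998. On day 30 they were -0.20 (standard error 0.88), -0.43 (standard error 0.35) and 0.57 (standard error 0.44), with edgeR FDRs of 0.986, 0.808 and 0.785.

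Interaction terms asked whether the treatment difference of day 20 differed from that of another day. For NODAL the log2 difference was 4.62 (standard error 1.92) against day 5, 6.77 (standard error 1.59) against day 10 and 5.54 (standard error 1.32) against day 30, with unadjusted P-values of 0.0299, 0.00106 and 0.00122. For THBS1 it was 2.10, 2.97 and 2.29 (standard errors 0.80, 1.14 and 0.88), with unadjusted P-values of 0.0191, 0.0225 and 0.0229. The lowest edgeR FDR among these 6 was 0.182, and no gene of the table was a DEG in any of the 3 interactions, in which 5.05%, 10.7% and 13.6% of genes had an unadjusted P under 0.05. TGFBR1 had -1.85, -1.56 and -1.19 (P between 0.166 and 0.194). Without the 3 set-aside libraries, the interaction of day 20 with day 10 made NODAL (6.60, edgeR FDR = 0.0817) and THBS1 (2.95, edgeR FDR = 0.0898) DEGs. That fit called 605 DEGs (4.34%) over all genes. With DESeq2, 83, 567 and 560 genes were DEGs in the interactions with days 5, 10 and 30, and NODAL was one of them against day 10 (FDR = 0.00108) and day 30 (FDR = 0.00358). The 3 interactions share the samples of day 20, so their values are not independent of each other.

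**Figure D2:**
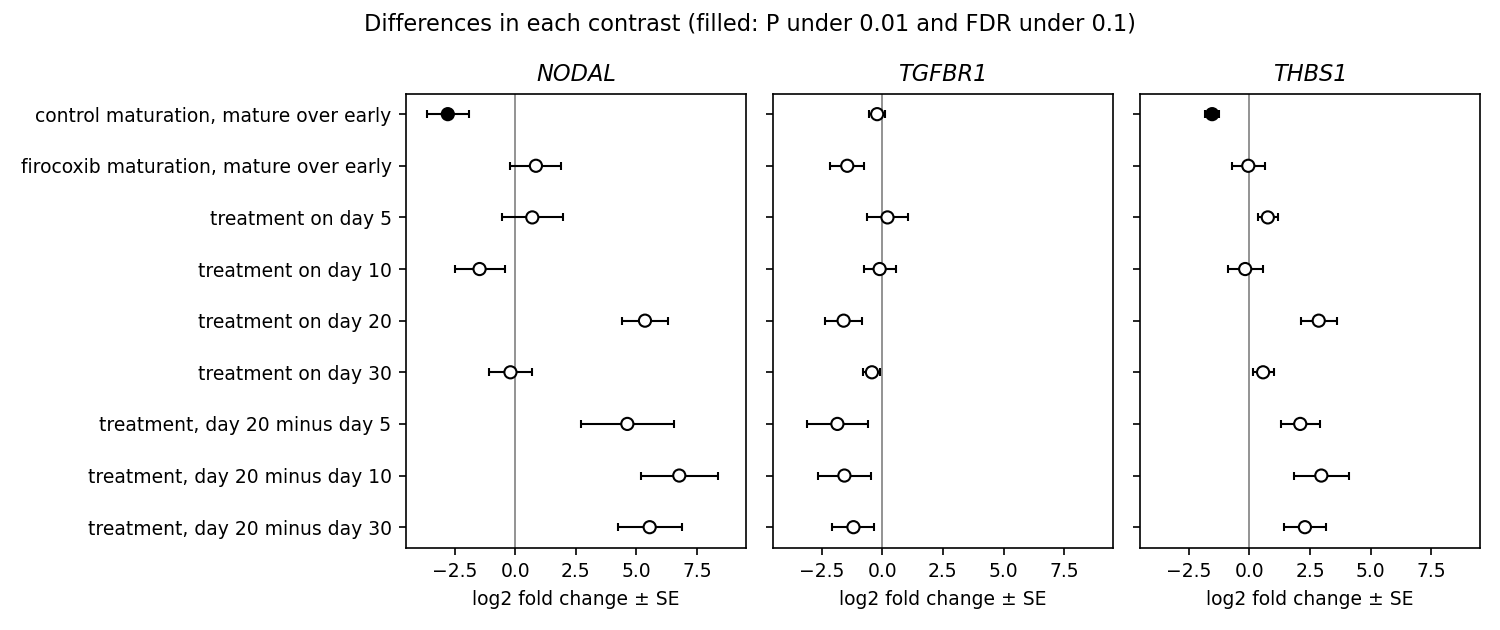
Log2 fold change (horizontal axes, points, with the standard error as bars) of NODAL, TGFBR1 and THBS1 in 9 contrasts (rows): maturation in control and in treated CL, treatment on each day, and the difference of the treatment effect of day 20 from that of another day. Filled points are DEGs (P under 0.01 and FDR under 0.1); these are NODAL and THBS1 in control maturation, while the points of day 20 lie at 5.35, -1.59 and 2.86.

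Over all 26 samples, NODAL and THBS1 had a Pearson correlation of log2 CPM of 0.43 (permutation p = 0.0263, adjusted over the 3 pairs 0.0789) and a Spearman correlation of 0.34 (permutation p = 0.0888, adjusted 0.266). Without the 2 samples farthest from the median of NODAL, r was 0.40, and for deviations from the group means it was 0.06 (permutation p = 0.794). NODAL and TGFBR1 had r = -0.28 (permutation p = 0.173, adjusted 0.259), rho = -0.18 (permutation p = 0.361, adjusted 0.481), and r = -0.14 without the 2 farthest samples. TGFBR1 and THBS1 had r = 0.17 (permutation p = 0.413), rho = 0.14 (permutation p = 0.481), and r = 0.23 without the 2 farthest samples of TGFBR1. Deviations from the group means gave r = 0.51 for this last pair (permutation p = 0.0607, adjusted 0.182). No pair passed an adjusted p of 0.05.

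Genes with a symbol whose log2 CPM followed each member most closely over the 26 samples were different for the 3 members. For NODAL they were HTR1D, a serotonin receptor (r = 0.92), PLPP4, a lipid phosphatase (0.88), SCNN1A, a subunit of the epithelial sodium channel (0.87), and HSD17B1, which converts estrone to estradiol (0.86). For TGFBR1 they were FNDC3A (0.94), the small GTPase RALB (0.92), CAND1, an exchange factor of cullin ubiquitin ligases (0.92), the integrin subunit ITGB1 (0.92) and ANKIB1 (0.92). For THBS1 they were PTGER4, a receptor of prostaglandin E2 (0.87), the galectin LGALS3 (0.84), ARHGAP10 (0.84), the proteoglycan DCN (0.82) and HAS2, a hyaluronan synthase (0.82). Of the 14170 other genes expressed, r was above 0.8 in 41 for NODAL, 679 for TGFBR1 and 12 for THBS1, and below -0.8 in 0, 159 and 13. These samples share days, treatments and libraries, so the coefficients describe likeness only.

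High NODAL went with transcripts known from oocytes. Of 8 oocyte markers, 6 had an identifier, namely ZP2, ZP3 and ZP4 of the zona pellucida, GDF9, BMP15 and NOBOX, and their summed level ranged from 4.11 to 261 CPM. It was 4.57, 9.26 and 6.63 CPM in day 20 controls (replicates 1, 2 and 3) and 151, 261 and 201 CPM in day 20 treated samples (replicates 2, 3 and 4). In the controls of that day 1 of the 6 markers had no read in any sample, and ZP3 averaged 0.0200 CPM, against 37.6 ± 5.06 CPM (SD, n = 3) in the treated samples. In day 5 controls the sum was 96.6, 4.11, 26.7 and 9.23 CPM (replicates 1, 3, 4 and 5), and in day 10 controls it was 109, 115 and 6.77 CPM (replicates 2, 3 and 4). Replicates 1 and 4 of day 5 and 2 and 3 of day 10 had both the higher sums and the higher NODAL of their groups. In treated samples it was 95.6, 14.1, 4.14 and 5.02 CPM on day 5 (replicates 1, 2, 4 and 5) and 4.34, 59.7 and 44.2 CPM on day 10 (replicates 1, 4 and 5), with the highest sum again in the sample with the highest NODAL. On day 30 the sums were 6.86, 19.7 and 23.9 CPM in controls (replicates 2, 3 and 4) and 130, 6.42 and 74.9 CPM in treated samples (replicates 2, 4 and 5), so that treated replicates 2 and 5 had high sums beside NODAL at 1.05 and 0.985 CPM. The part of these transcripts in the NODAL differences was not tested.

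**Figure D3:**
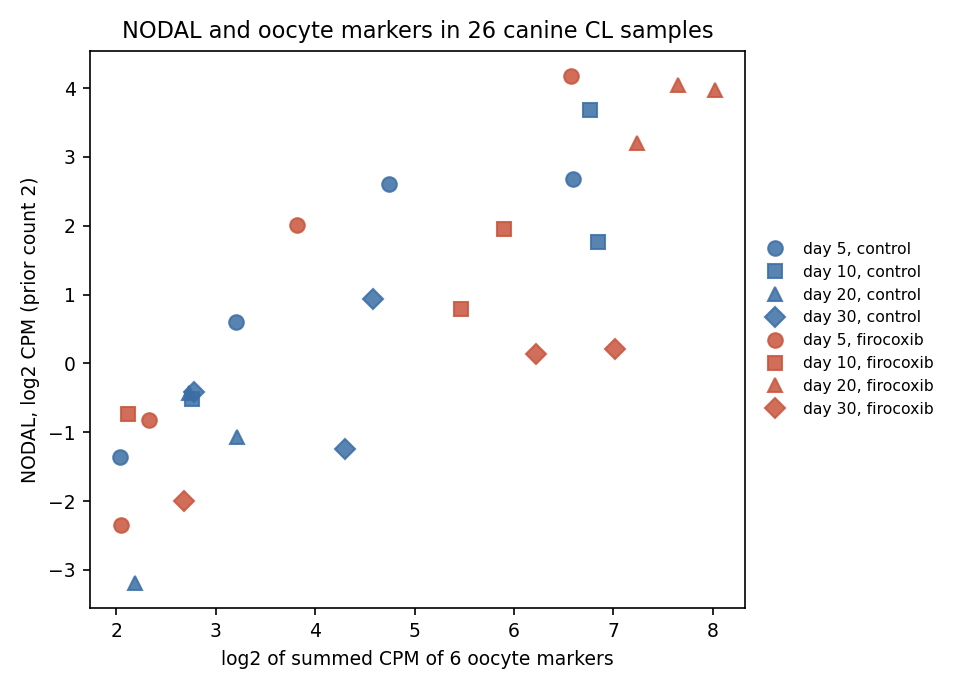
NODAL (vertical axis, log2 CPM with a prior count of 2) against the log2 of the summed CPM of 6 oocyte markers (horizontal axis) in 26 CL samples, coloured by treatment and shaped by day. Day 20 treated samples are at the upper right and day 20 controls at the lower left, while treated replicates 2 and 5 of day 30 have high markers (130 and 74.9 CPM) with NODAL near 1 CPM.

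Transcripts of connective tissue are given beside THBS1. The 6 fibroblast markers, COL1A1, COL1A2, COL3A1, DCN, LUM and PDGFRA, all had an identifier. Their summed level ran from 14659 to 21291 CPM in day 5 controls, 6547 to 7307 CPM on day 10, 2883 to 7262 CPM on day 20 and 3971 to 5351 CPM on day 30. In treated samples it ran from 12136 to 26191 CPM on day 5, 4159 to 9273 CPM on day 10, 9820 to 13804 CPM on day 20 and 2408 to 5449 CPM on day 30. Thus the treated and control ranges were apart on day 20, where THBS1 was also higher in the treated samples, and overlapped on the other days. The markers did not move as one on day 20, since LUM had 555 ± 326 CPM (SD, n = 3) in controls and 196 ± 146 CPM (SD, n = 3) in treated samples, and PDGFRA ran from 46.7 to 91.8 CPM in controls and from 35.01 to 190 CPM in treated samples. The granulosa and follicle markers FSHR, INHA and CYP19A1, 3 of 5 listed, summed to 2961 to 4579 CPM in day 20 controls and 397 to 1815 CPM in day 20 treated samples. INHA was not lower in the treated samples (140 ± 95.5 against 111 ± 106 CPM, SD, n = 3). Control means of FSHR were 753 CPM on day 5 and 2016 CPM on day 20, and those of CYP19A1 were 225 and 1550 CPM. Those of INHA went the other way, with 389 and 111 CPM. The sum is therefore not read as an amount of follicle tissue. The part of the fibroblast or granulosa markers in the THBS1 differences was not tested. No platelet marker, another source of thrombospondin, had an identifier.

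TGFBR1 was lowest in the 3 set-aside libraries. These were treated replicate 2 of day 20 (26.03 CPM), treated replicate 1 of day 5 (33.7 CPM) and treated replicate 1 of day 10 (63.2 CPM). Every other sample had at least 118.9 CPM. Treated replicate 3 of day 20, also little like its group (correlation 0.835), had 164 CPM, above the lowest day 30 control. On day 20, PRLR, the prolactin receptor of luteal cells, was at 343 ± 59.2 CPM (SD, n = 3) in controls and 131 ± 37.9 CPM (SD, n = 3) in treated samples, while LHCGR, the receptor of luteinizing hormone, had 65.7 ± 44.0 and 64.8 ± 52.9 CPM. The part of these in the TGFBR1 values was not tested.

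**Figure D4:**
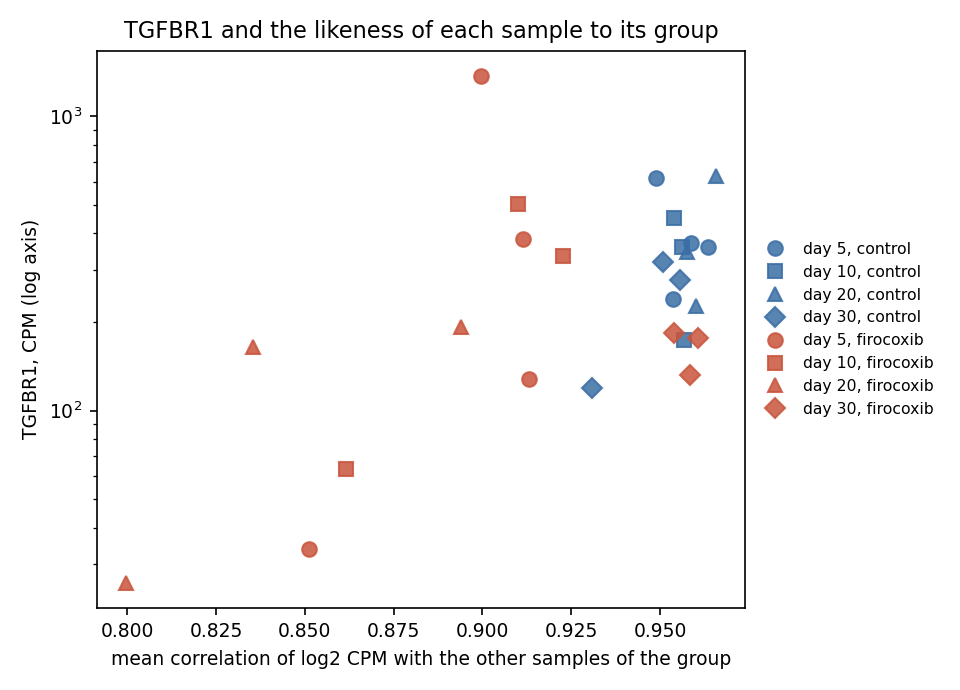
TGFBR1 (vertical axis, CPM on a log axis) against the mean correlation of each sample's log2 CPM with the other samples of its group (horizontal axis), coloured by treatment and shaped by day. The 3 samples with correlations of 0.7998, 0.851 and 0.862 have the lowest TGFBR1 (26.03, 33.7 and 63.2 CPM). A treated sample of day 20 with a correlation of 0.835 has 164 CPM. The highest value, 1371 CPM, is a treated sample of day 5 with a correlation of 0.900.

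The rest of the pathway was read from 8 lists of 113 genes in all, of which 53 had an identifier. Most of the others, among them TGFB1, TGFB2, TGFBR2, ACVR2A, ACVR2B, TDGF1, LEFTY2, INHBA, CD36 and CD47, were not analysed here, since symbols came from the study's lists of DEGs. The counts and medians of the lists are therefore not independent evidence of a direction in any contrast. The counts of control maturation stand beside 10.4% of all genes tested that were lower and 10.1% that were higher. In the maturing control CL, 4 of the 6 ligands of the TGF-beta, activin and nodal branch with an identifier, of 14 listed, fell, with a list median of -1.63 on the log2 scale beside 0.02 over all genes. They were NODAL, GDF3 (-2.76), INHA, a subunit of inhibin (-1.62), and GDF9, an oocyte factor that is also one of the markers above (-1.64). GDF3 averaged 3.54 CPM in early and 0.525 CPM in mature controls, so its fold change depends on how values near 0 are fitted. TGFB3 was at -0.80 (standard error 0.28, edgeR FDR = 0.0581) and did not pass the P-value threshold. Of 5 BMP ligands, BMP4 fell (-1.21).

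Among 6 receptors of these ligands, BMPR1B rose (1.28) and ACVRL1 (-1.10) and ACVR1B (-1.36), a type I receptor that nodal and activin use, fell. The co-receptors TGFBR3 (0.09) and ENG (0.20) passed no threshold, as was the case for TGFBR1. Of 7 genes of latency, activation and ligand processing, MMP2, a matrix protease, fell (-1.90) as did THBS1. All 5 extracellular inhibitors with an identifier, of 13 listed, fell, with a median of -2.25, where 10.4% of all genes fell. Identifiers came from the study's DEG lists, this contrast included, so the 2 shares cannot be compared as enrichment. They were GREM1 (-4.79) and CHRD (-1.82), which bind BMPs, FSTL3 (-3.64) and FST (-2.25), which bind activins, and DCN (-1.10). GREM1 averaged 13.7 CPM in early and 0.497 CPM in mature controls, so its fold change depends on how values near 0 are fitted. The signal transducers SMAD2 (0.87), SMAD1 (0.48) and SMAD9 (0.84) rose while FOXH1, a DNA-binding partner of SMAD2, fell (-1.87).

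Of 13 genes known to respond to TGF-beta, 7 fell in the maturing control CL, with a median of -1.33, and none rose, where 10.4% of all genes fell and 10.1% rose. The 13 also had their identifiers from the study's DEG lists, so these shares cannot be compared as enrichment. They included TGFBI (-1.67), the protease inhibitor TIMP1 (-2.78), the collagens COL3A1 (-1.39), COL1A1 (-1.86) and COL1A2 (-1.10), which are fibroblast markers too, and TAGLN (-1.52). Of 6 thrombospondins and receptors, THBS1, THBS2 (-0.99) and COMP (-2.39) fell. In treated CL, where the same contrast called 3.11% of all genes lower and 1.54% higher, the DEGs of the lists were INHA (-2.20), ACVR1B (-1.38), ACVRL1 (-1.77), PCSK5, a convertase that processes ligands (-1.24), FSTL3 (-5.32), GREM1 (-4.91), TIMP1 (-4.35) and FN1 (-2.20) among those that fell, and TGIF1, a repressor of SMAD activity (1.63), which rose. GREM1 was again near 0 in the mature treated samples, with means of 0.477 CPM on day 20 and 0.0193 CPM on day 30. The difference between control and treated dogs in these calls was not tested.

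On day 20, 2 genes of the 8 lists were DEGs between treated and control CL in edgeR's test, both higher, beside 0.102% of all genes. They were GDF9 (3.57, standard error 0.41, edgeR FDR = 0.0689) and BMP15 (8.69, standard error 1.20, edgeR FDR = 0.096), both of them oocyte factors and markers. GDF9 averaged 36.8 ± 9.51 CPM (SD, n = 3) in treated and 3.18 ± 0.175 CPM (SD, n = 3) in control samples, and BMP15 65.3 ± 22.7 and 0.160 ± 0.277 CPM. BMP15 was at 0 CPM in 2 of the 3 controls and at 0.481 CPM in the other, so it passed the filter on low counts only through the treated group, and its fold change depends on how values near 0 are fitted. The list medians were 2.59 for the ligands, 1.17 for the BMP ligands, 0.55 for the receptors, 1.48 for latency and activation, 0.95 for the inhibitors, 0.46 for the SMADs, 1.57 for the responding genes and 1.43 for the thrombospondins, beside 0.11 over all genes. Symbols came from the study's DEG lists of these same samples, treatment on day 20 included. These medians and the DESeq2 counts of the lists are therefore not independent evidence of a direction. TGFB3 was at 2.33 (standard error 0.52, edgeR FDR = 0.140) and FST at 4.34 (standard error 0.96, edgeR FDR = 0.135), and neither passed the FDR threshold. ACVR1B (0.33), TGFBR3 (0.76) and ENG (0.86) passed neither threshold. DESeq2, which called 10.8% of all genes on day 20, called 5 of 6 ligands, 2 of 5 BMP ligands, 4 of 7 genes of latency and activation, 2 of 5 inhibitors, 2 of 6 SMADs and regulators, 7 of 13 responding genes and 2 of 6 thrombospondins and receptors higher, and 1 of 6 receptors lower. On days 5, 10 and 30 edgeR's test called no gene of the table. DESeq2 called 1 ligand, 1 gene of latency and activation and 2 responding genes higher on day 5, beside 0.733% of all genes, and 1 gene of latency and activation and 1 responding gene lower on day 30, beside 0.879%.

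**Figure D5:**
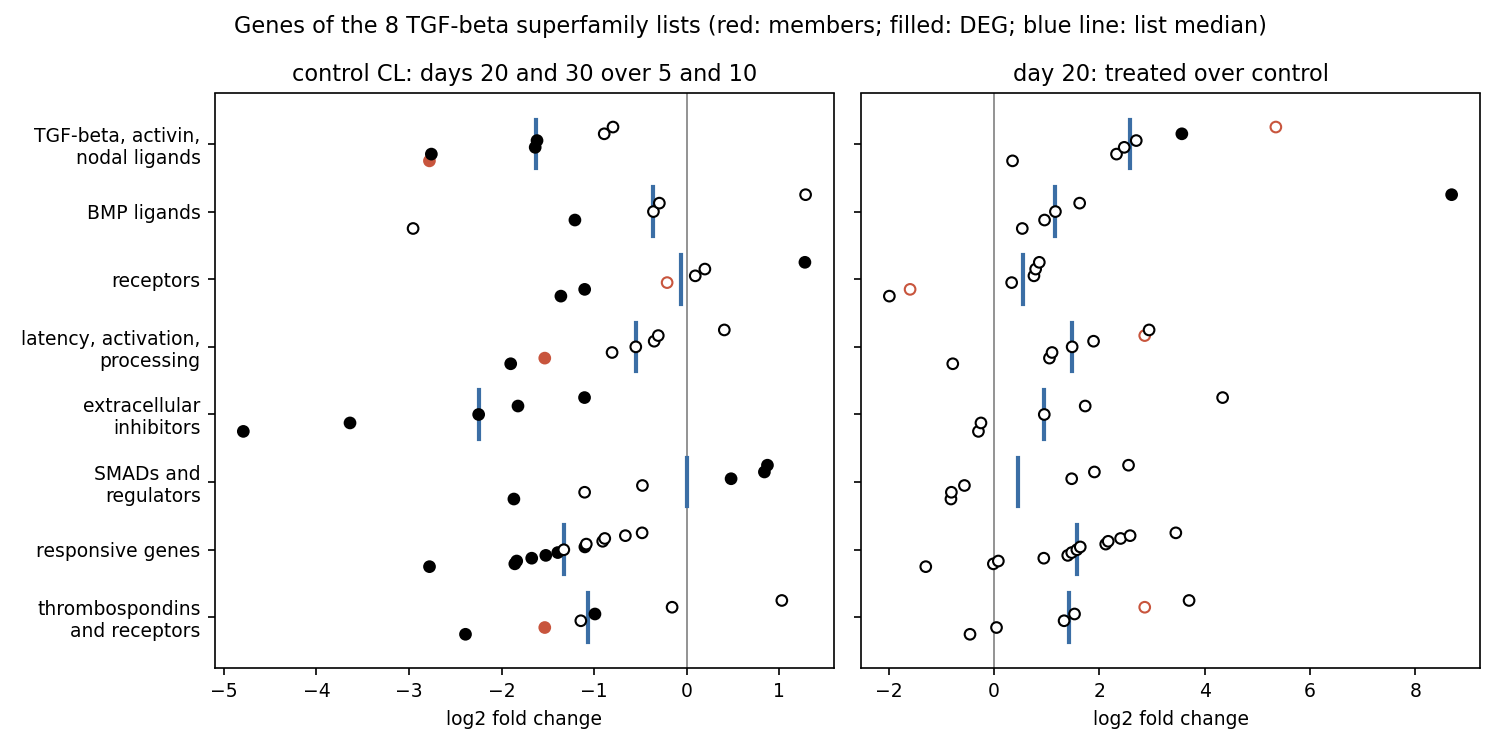
Log2 fold change (horizontal axes) of the genes of 8 lists of the TGF-beta superfamily (rows) in the maturation of control CL (left) and in treated over control CL of day 20 (right). Each point is 1 gene, red for NODAL, TGFBR1 and THBS1, filled where it is a DEG, and the blue line is the median of the list. All 5 extracellular inhibitors with an identifier are filled and below 0 on the left, and GDF9 and BMP15 are the filled points on the right. Only genes in the study's own DEG lists are shown, so the directions are not independent evidence.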

How the data were processed

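The authors aligned poly-A selected reads with STAR to CanFam3.1, counted them per Ensembl gene with featureCounts and deposited the raw counts for 26 samples, with no normalization or filter; versions and the use of strand are not given in the sources used here. Each sample is 1 dog, grouped by the day and treatment in its label. The 4 samples that the authors removed were not used here.

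Counts were analysed in R 4.3.3 with edgeR 4.0.16 (TMM factors, quasi-likelihood test, Benjamini-Hochberg adjustment over all genes tested), on genes averaging 10 reads or more in any group of the comparison. Standard errors were derived from the log2 fold change and its F statistic. Log2 CPM used a prior count of 2. Over 30 pairs of same-group samples, chi-square divided by its degrees of freedom was never below 46.9, so no library was a copy. Library totals limit the precision of sparse genes such as NODAL, and the smallest was 12831896 reads, in control replicate 2 of day 10. P-values weigh a difference against the spread between dogs. In the maturation contrasts that spread also includes the difference between the 2 days pooled in a group. Alternatives were DESeq2 1.42.0, limma 3.58.1 (voom), RLE factors, no filter, a fit of all samples, the replicate number as a block, and the omission of each sample. The tests were tried on simulated data.

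Members, lists and tests were chosen with earlier results of these data known. Named genes were the members, up to 6 DEGs per list and contrast by smallest P, a fixed set of pathway genes (TGFB1, TGFB2, TGFB3, TGFBR2, TGFBR3, ENG, CD36, CD47, ACVR2A, ACVR2B, ACVR1B, TDGF1, LEFTY2, FST and INHBA), and the 5 genes with a symbol most correlated with each member; a few genes named by this rule are left unreported. Of 19856 identifiers, 4355 had a symbol in the study's supplementary lists.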

Additional observations from a re-analysis of the deposited data

Results flagged for a closer look

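Of 18 groups of 4, 6 or 7 samples tested for a sample far from the rest (day 5 groups, and the early and mature groups of each arm), 4 held one. The limits assume normally spread values, and the day 5 groups are part of the early groups. No chance rate is therefore set beside this count. NODAL at 1.80 CPM in control replicate 4 of day 30 was apart from the other 5 mature controls, the nearest of which had 0.643 CPM. NODAL at 18.0 CPM in treated replicate 1 of day 5 was apart from the other 6 early treated samples, the nearest at 3.90 CPM. TGFBR1 at 1371 CPM in treated replicate 5 of day 5 was apart from the other 6 early treated samples, the nearest at 505 CPM. TGFBR1 at 26.03 CPM in treated replicate 2 of day 20 was apart from the other 5 mature treated samples, the nearest at 132 CPM.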

How the results depend on the processing

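The drop of THBS1 in the maturing control CL kept its call under all alternatives run, and that of NODAL kept its direction but lost its call in limma voom (-2.64) and with the replicate block (-2.89). On day 20, NODAL passed both thresholds with DESeq2 (5.34), limma voom (6.08), RLE factors (5.31), no filter (5.31) and all 26 samples in 1 fit (5.32), and THBS1 with DESeq2 (2.80) and all 26 samples in 1 fit (2.81). The interaction of NODAL with DESeq2 passed against day 10 (6.79) and day 30 (5.66). Without the 3 set-aside libraries, TGFBR1 passed in treated maturation (-1.66), and NODAL (6.60) and THBS1 (2.95) passed in the interaction with day 10. Signs turned for NODAL in treated maturation with all 26 samples in 1 fit (-0.0551), and on day 5 for NODAL with limma voom (-0.94) and the replicate block (-1.64) and for TGFBR1 with limma voom (-0.80) and the replicate block (-0.94). The cause of these changes was not tested.

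Without 1 sample at a time, log2 fold changes ran from -3.44 to -2.25 for NODAL and -1.67 to -1.37 for THBS1 in control maturation. In treated maturation THBS1 ran from -0.68 to 0.42. On day 5 NODAL ran from -1.24 to 1.22 and TGFBR1 from -1.16 to 0.66. THBS1 ran from 0.24 to 1.03 on that day, with a lowest edgeR P of 0.0130 and a lowest FDR of 0.288. On day 10 NODAL ran from -2.36 to 0.0252, TGFBR1 from -0.72 to 0.36 and THBS1 from -0.64 to 0.40. On day 20 NODAL ran from 4.79 to 6.21 and THBS1 from 2.23 to 3.31, and on day 30 NODAL ran from -0.70 to 0.71. TGFBR1 on day 30 ran from -0.86 to -0.17, with a lowest edgeR P of 0.00463 and a lowest FDR of 0.153. THBS1 on day 30 ran from 0.18 to 0.95, with a lowest edgeR P of 0.00679 and a lowest FDR of 0.541.

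The number of DEGs moved by over 1.5 times in control maturation from 2774 to 1754 (all 26 samples) and 1806 (replicate block), in treated maturation from 639 to 1620 (DESeq2), 1705 (all 26 samples), 305 (limma voom), 383 (replicate block) and 1586 (without the 3 libraries), and on day 20 from 14 to 1479 (DESeq2), 1559 (all 26 samples), 99 (limma voom), 95 (RLE factors) and 109 (no filter). It moved from 0 to 100 (DESeq2) and 4 (replicate block) on day 5, to 116 on day 30 (DESeq2), and to 83, 567 and 560 in the interactions with days 5, 10 and 30 (DESeq2), with 15 (no filter) and 605 (without the 3 libraries) against day 10 and 21 (without the 3 libraries) against day 5. Without 1 sample at a time it ran from 151 to 1989 in treated maturation and from 0 to 1016 on day 20.

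The replicate numbers in the sample titles recur between groups, but no source describes pairs, and the deviations of same-numbered samples correlated at between -0.09 and 0.51 on day 5, at -0.27 on day 10, at -0.39 on day 20 and between -0.18 and 0.03 on day 30. With the replicate block NODAL on day 20 was at 4.64 (edgeR FDR = 0.632). It could not be fitted on day 10, where the groups share 1 number.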
